A study of Mus musculus with 2031 samples.

Results

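The genes described here act in the handling of GABA, the main inhibitory transmitter of the brain. Those that receive it are the GABA-A receptor subunits Gabrg1 (γ1), Gabra2 (α2) and Gabrb1 (β1) and the GABA-B receptor subunits Gabbr1 and Gabbr2. The GABA transporter GAT-3 (Slc6a11) removes it, and GABA transaminase (Abat) breaks it down. Monoamine oxidase B (Maob) takes part in a route that makes it. These 8 genes were chosen by symbol, and each was found once among the 49671 gene identifiers of the count data. All 8 passed the low-count filter in every comparison. Their levels were read across the cell types that the authors assigned and across cortex and hippocampus.

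GABA opens GABA-A receptors, chloride channels built from 5 subunits in which α, β and γ or other subunits combine, and it activates GABA-B receptors, which couple to G proteins and need both of their subunits to reach the cell surface and signal. Astrocytes carry both kinds of receptor and respond to GABA with calcium signals. They also take GABA up, GAT-3 being one of the transporters, and pass it to GABA transaminase in the mitochondria. Monoamine oxidase B takes part in a route by which astrocytes can make GABA from putrescine.

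Single cells came from C57BL/6J mice at postnatal day 56, for which no treatment or transgene is named, in 4 cell suspensions. Each of the 2 cortical suspensions was prepared from 1 animal, both littermates, and each of the 2 hippocampal suspensions was pooled from 4 littermates of a different set. Living cells that carried ACSA-2, an astrocyte surface antigen (ATP1B2), and lacked the oligodendrocyte antigen O1 were sorted 1 to a well, and full-length cDNA was sequenced by Smart-seq2. Of 2030 cells with data here, 1781 were typed as astrocytes (461 and 499 cortical, 393 and 428 hippocampal) and divided by the authors into the subtypes AST1 to AST5, and mural (27, 12, 48 and 47 cells), endothelial (30) and neuronal (17) cells passed the sort as well. The suspension was the replicate, so every group of an area rests on at most 2 samples, and brain area cannot be told apart from litter and from the number of mice pooled. Each of the 32 plates held 1 suspension, whereas each of the 8 library pools held all 4.

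A cell had between 600758 and 3238215 counts (median 1458411). Counts were summed over the cells of a type in a suspension, and a sum needed at least 5 cells. Levels are given as CPM, the counts per 1000000 counts of such a sum, scaled by TMM, and as CPM per kb of exon wherever genes are compared with each other. The types were checked against their markers, whose CPM here and below carry no TMM scaling. The 5 astrocyte markers together reached 19001 to 21151 CPM in the astrocyte sums and 0.902 to 448 CPM in the mural, endothelial and neuronal sums, and none of the 5 was at 0 in any subtype. AST4 reached 14037 to 15729 CPM of these markers and AST5 6939 to 8041. Neuronal markers reached 4610 to 4654 CPM in the neuronal sums and at most 70.6 CPM in any astrocyte subtype. Mural markers reached 48932 to 58889 CPM in the mural sums and 10008 to 17265 CPM in the endothelial sums, where endothelial markers stood at 15131 to 20956 CPM. The source of the mural markers in the endothelial sums was not tested. Smart-seq2 reads carry no molecular tags, so intervals and floors cover counting error only.

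On GRCm38, the 3 GABA-A subunit genes lie in 1 cluster of chromosome 5 that spans 1398 kb and also holds Gabra4 (α4). Gabrg1 lies at chr5:70751047-70842617 and Gabra2 at chr5:70957597-71095849, both on the minus strand, and Gabrb1 at chr5:71658113-72149037 on the plus strand. Gabra4 and Gabrb1 lie head to head with gene models that overlap at their starts, and since the libraries carry no strand, reads in that overlap cannot be assigned to either. Gabbr1 lies at chr17:37045966-37075067 (plus), Gabbr2 at chr4:46662305-46991873 (minus), Abat at chr16:8513429-8621568 (plus) and Maob at chrX:16709282-16817366 (minus), 21.5 kb from its relative Maoa. Slc6a11 lies at chr6:114131241-114249952 (plus). Counts were taken over exons.

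The 250 bases upstream of the annotated starts of Gabrg1 and Gabra2 are shown because these neighbours on chromosome 5 were both at or near 0 in AST4, as described further on. They are RefSeq sequence of GRCm38.p6, at chr5:70842618-70842867 for Gabrg1 and chr5:71095850-71096099 for Gabra2, read 5′ to 3′ in the direction of the gene, with CG dinucleotides in capitals.
Gabrg1: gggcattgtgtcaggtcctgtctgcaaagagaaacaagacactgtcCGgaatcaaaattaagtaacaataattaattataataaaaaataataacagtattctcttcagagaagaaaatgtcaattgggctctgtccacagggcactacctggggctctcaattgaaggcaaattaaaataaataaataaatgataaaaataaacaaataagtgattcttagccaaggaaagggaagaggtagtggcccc
Gabra2: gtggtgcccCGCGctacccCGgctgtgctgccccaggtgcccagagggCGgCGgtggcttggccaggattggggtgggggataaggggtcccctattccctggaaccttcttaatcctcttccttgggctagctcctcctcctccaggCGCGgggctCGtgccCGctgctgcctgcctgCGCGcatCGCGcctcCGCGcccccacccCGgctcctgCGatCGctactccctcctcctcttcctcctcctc
The Gabrg1 window held 1 CG, and the Gabra2 window 18 CG. Over 32851 such windows the median was 6 CG. A window with as few CG as that of Gabrg1, or fewer, was found in 18.8% of all windows, and with as few as that of Gabra2, or fewer, in 80.3%. Neither held a TATA box (TATAAA, either strand), which 12.4% of all windows held. Each held 1 match to TTGGC, the core of the nuclear factor I site, present in 41.5% of windows, and Gabrg1 held 1 match to the SOX-type motif AACAAT, present in 9.42%. Motifs were searched on both strands, none contains another, and a match is no more than a match of letters. Windows were found for 6 of the 8 members, not for Abat or Maob.

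Among the GABA-A subunits, Gabrb1 was the most widely detected in astrocytes and Gabra2 the least. At least 1 count of Gabrb1 was found in 75.2% of 1781 astrocytes (Wilson 95% interval 73.1 to 77.1%), of Gabrg1 in 53.3% and of Gabra2 in 25.8%. Over all astrocytes of a suspension, Gabrg1 stood at 419.7 and 453 CPM in cortex and at 414 and 399 CPM in hippocampus, Gabrb1 at 634 and 665 against 743 and 757 CPM, and Gabra2 at 49.2 and 54.5 against 55.1 and 55.7 CPM. Per kb of exon, Gabrg1 (53.5 ± 2.90 CPM per kb, SD, n = 4) and Gabrb1 (50.6 ± 4.32) lay within each other's spread, and Gabra2 (7.02 ± 0.389) was far below both. The order of Gabrg1 and Gabrb1 differed by area. In cortex they stood at 53.3 and 57.5 against 45.8 and 48.1 CPM per kb, in hippocampus at 52.6 and 50.7 against 53.7 and 54.7. Gabra4, which shares the cluster, reached 13.2 CPM per kb and 19.99% of astrocytes.

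Of the 2 GABA-B subunits, Gabbr1 was found in 45.5% and Gabbr2 in 12.3% of astrocytes. Their levels were 18.4 ± 3.98 and 6.77 ± 5.48 CPM per kb (SD, n = 4), and the wide spread of Gabbr2 was a spread between areas. Slc6a11 was found in 57.3% of astrocytes at 52.03 ± 5.38 CPM per kb, Abat in 50.4% at 50.8 ± 5.00 and Maob in 43.2% at 103.3 ± 11.6 (SD, n = 4). Maob thus had the highest level of the 8 per length. Gabrg1, Slc6a11, Abat and Gabrb1 could not be ordered beyond their spread over the 4 suspensions. Gabbr1 came before Gabra2 and Gabbr2, whose order differed by area. In cortex Gabbr2 stood at 11.1 and 11.9 CPM per kb and Gabra2 at 6.44 and 7.13. In hippocampus Gabbr2 stood at 2.73 and 1.38 and Gabra2 at 7.22 and 7.29. Thinning every cell to 50000 counts lowered the shares to between 9.66% (Gabbr2) and 71.1% (Gabrb1) and left their order as it was, with Gabbr1 and Maob at 38.7% and 38.6%.

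The 3 astrocyte genes Gabrg1, Gabrb1 and Slc6a11 were all but missing from the mural, endothelial and neuronal cells of this sort. In 17 neuronal cells, all hippocampal, Gabrb1 had 2 counts, Slc6a11 had 1 and Gabrg1 had 0. All 17 held Slc17a6, a vesicular glutamate transporter, and 0 held Gad1 or Gad2, which make GABA. Other neurons were not covered. In mural cells, whose median depth per suspension was 1136140 to 1283513 counts, Gabrb1 had 0 counts. With the floor at 3 counts over all mural cells, it was 32560-fold higher in astrocytes by summed CPM. Such a floor is one of reads and not of cells, so the fold is no lower bound. Gabrg1 and Slc6a11 had 2 counts each in mural cells, and 0 counts in 30 endothelial cells. The 11 microglial and 9 oligodendrocytic cells were too few for sums, and Gabrg1 was seen in 1 cell of each, Gabrb1 in 1 microglial and Slc6a11 in 1 oligodendrocytic cell. By share, Gabrb1 was seen in 0 mural cells, which allows a share of up to 2.24% (a limit of 3 cells in the total, as for every share of 0 given below, in place of the wider Wilson interval drawn in the plot of types), and Gabrg1 and Slc6a11 in 1.49% of them each. These shares lay far below those in astrocytes. The median depth over all cells was 1458411 counts, and the part of depth in these shares was not tested.

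Against mural cells, the quasi-likelihood test of edgeR, Benjamini-Hochberg adjusted, called 3 of the 8 members, all higher in astrocytes, where 15.1% of 17404 genes were called in either direction. These were Slc6a11 (adjusted p = 0.000843), Gabrb1 (adjusted p = 0.00146) and Gabrg1 (adjusted p = 0.00188). The same 3 were called against endothelial cells, where 5.61% of genes were called, and against neuronal cells, where 2.86% were. All 8 members had positive fitted values against mural cells, with a median of 10.40 on the log2 scale when genes at 0 were put at their floor, beside a median of 1.36 over all genes. The types were assigned from these same counts, so the calls are not independent evidence of the types. Other tools called more members and more genes. Against mural cells DESeq2 called 6 members among 4935 genes and limma 7 among 3594, and against endothelial cells they called 8 among 6350 and 7 among 4104. Calls rested on single suspensions in places. Without the second hippocampal suspension Gabrg1 missed the threshold against mural cells (adjusted p = 0.0563) and, with Gabrb1, against endothelial cells (0.0691 and 0.0603), as both did there without the first cortical one (0.0585 and 0.0816). Without either hippocampal suspension, which alone held neurons, no member was called against neuronal cells, and without the first cortical one Gabrb1 was not (0.0746).

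**Figure D1:**
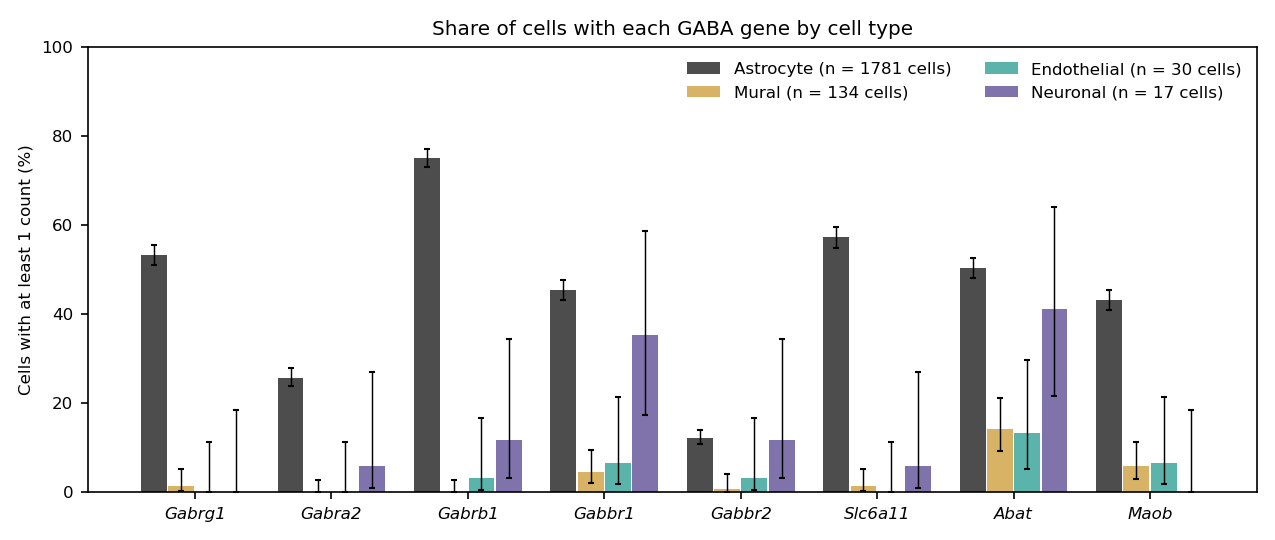
Percent of cells with at least 1 count (vertical axis) for each of the 8 genes (horizontal axis) in astrocytes, mural, endothelial and neuronal cells; bars are shares over all suspensions and lines are Wilson 95% intervals, which cover counting error only. Gabrg1, Gabrb1 and Slc6a11 stand at 53.3%, 75.2% and 57.3% of astrocytes and at most 11.8% of any other type drawn, whereas Abat reaches 41.2% of neuronal cells.

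The GABA enzymes were spread over more cell types. Abat stood at 209.9 and 462 CPM in the 2 neuronal sums, a range that takes in the 360.6 to 441.6 CPM of the astrocyte sums, and 7 of 17 neuronal cells had a count. Mural cells held Abat at 25.4, 109.3, 140.4 and 129.9 CPM (14.2% of cells). Maob had 0 counts in 17 neuronal cells. With the floor at 3 counts over these cells, it was 2225-fold lower by summed CPM than in the astrocytes of the same suspensions (edgeR quasi-likelihood, adjusted p = 0.0726). In mural cells Maob ranged from 2.71 to 95.6 CPM and was seen in 5.97% of cells. Neither enzyme was called between astrocytes and any other type by edgeR.

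The neuronal cells also held receptor genes. Gabbr1 was found in 6 of 17 neuronal cells and at 112.3 and 28.2 CPM in the 2 sums, and Gabbr2 in 2 of 17. Gabra2 was found in 1 of 17 neuronal cells, which supplied all of its 1703 counts there. Gabrg1 was found in 0 of 17 neuronal cells and in 949 of 1781 astrocytes.

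AST4, a subtype found almost entirely in hippocampus, had Gabrg1 at 0 and Gabra2 close to it in its hippocampal sums, as had the single hippocampal AST5 sum of 6 cells. Gabrg1 had 0 counts in both AST4 sums (41 and 48 cells), whereas the 6 hippocampal sums of AST1 to AST3 ran from 274.3 to 763.2 CPM. By summed CPM, which carries no TMM scaling, this is 16202-fold lower in AST4, with the floor at 3 counts over its 89 hippocampal cells. That floor is one of reads and not of cells, so the fold is no lower bound. No hippocampal AST4 cell of 89 had a Gabrg1 count, which allows a share of up to 3.37%, and this held in all 8 library pools (5 to 18 AST4 cells each), while 48.1 to 62.9% of hippocampal AST1 to AST3 cells of those pools had one. Of the 2 AST4 cells from cortex, which were too few for a sum, 1 had Gabrg1 and 1 had Gabra2.

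Gabra2, next to Gabrg1 on chromosome 5, stood at 2.44 and 0 CPM in AST4 and came from 1 of 89 cells. In the 6 hippocampal sums of AST1 to AST3 it ranged from 55.8 to 175 CPM, and its summed CPM was 46.2-fold lower in AST4. Gabrb1, at the other end of the same cluster, stood at 654 and 523 CPM in AST4, next to 548 to 809 CPM in the hippocampal sums of AST1 to AST3, a ratio of 1.10. Gabrb1 was found in 68 of 89 hippocampal AST4 cells (76.4%), and in 74.7% of AST1 cells. Gabra4, between them, stood at 17.8 and 34.04 CPM in AST4, with 71.9 to 91.9 CPM over all astrocytes of a suspension. Within 1 gene cluster, then, the γ1 and α2 subunits were at or near 0 in AST4 and the β1 subunit was not.

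**Figure D2:**
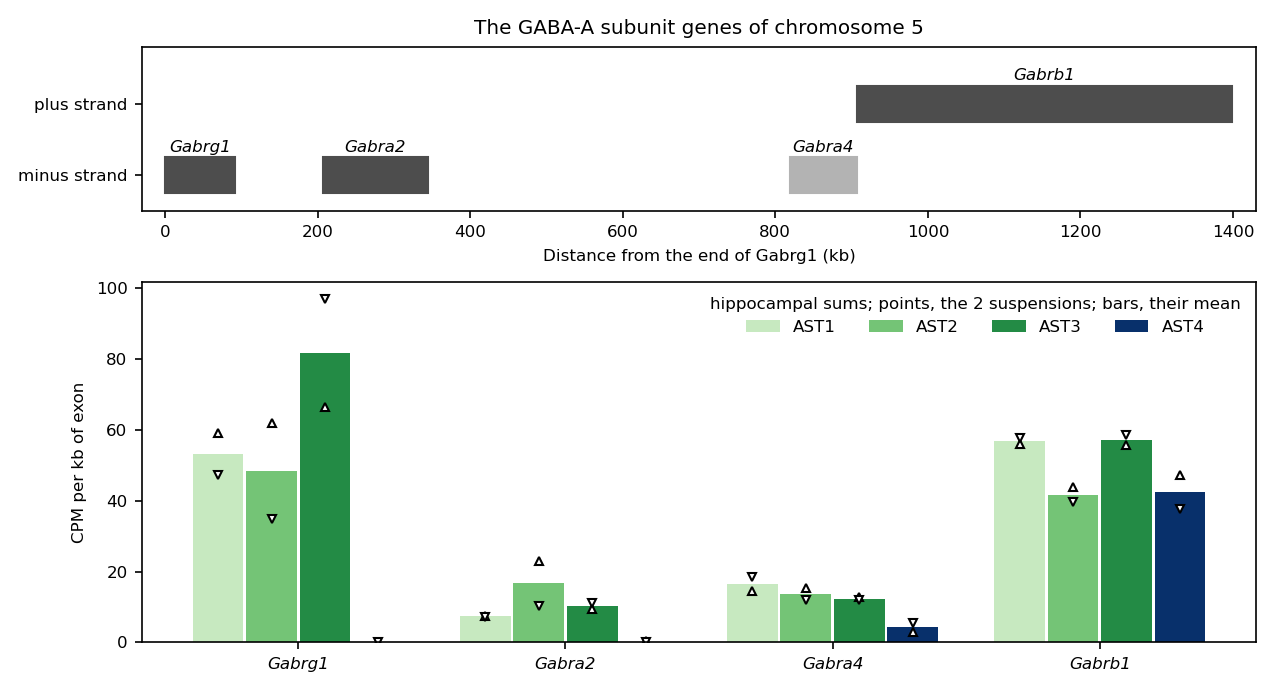
Top, the 4 GABA-A subunit genes of chromosome 5 drawn to scale by distance in kb from the outer end of Gabrg1, by strand. Bottom, their level in CPM per kb of exon in hippocampal sums of AST1 to AST4; bars are means of the 2 suspensions and points the suspensions. Gabrg1 and Gabra2 are at or near 0 in AST4, and Gabrb1 is not.

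Outside the cluster, the AST4 values lay below those of most hippocampal sums of AST1 to AST3, to which they are compared here, but not at 0, apart from Gabbr2. Gabbr2 had 0 counts in AST4. With the same floor of 3 counts, this is 550-fold lower than the hippocampal AST1 to AST3 cells, themselves at only 12.5 CPM. Hippocampal AST2, at 0 and 0.188 CPM, was not set apart from AST4, however. Gabbr1 stood at 45.6 and 49.2 CPM, 2.24-fold lower, though hippocampal AST2 (29.6 and 74.4 CPM) overlapped it. Slc6a11 stood at 74.9 and 80.4 CPM in AST4 against 257.5 to 614.6 CPM in those sums, 3.31-fold lower by summed CPM. Maob stood at 73.7 and 44.1 CPM against 228.4 to 370.2 CPM, 4.47-fold lower, and was found in 16 of 89 cells. Abat stood at 245.3 and 238.2 CPM against 304.8 to 568.7 CPM, 1.26-fold lower by summed CPM. The hippocampal AST5 sum of 6 cells stood at 0 CPM for Slc6a11 and Gabrb1 and at 70.8 CPM for Maob. Median sequencing depth was 1395401 to 1426479 counts per AST4 cell and 1217387 to 1587135 in hippocampal AST1 to AST3. The median number of genes detected was 2396 and 2593 in AST4 and 1818 to 2112 in hippocampal AST1 to AST3. The part of depth and of genes detected in these values was not tested. Mural markers reached 125.6 and 443.6 CPM in AST4, at most 288.1 CPM in the other subtypes and at least 48932 CPM in mural cells, and their part in these values was not tested. The median AST4 cell had counts for 2 of the 8 members, the median astrocyte for 4.

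In the test of AST4 against the other subtypes, the quasi-likelihood test of edgeR, Benjamini-Hochberg adjusted, called none of the 8 members, where 0.636% of 18233 genes were called. At an unadjusted p under 0.05 there were 4, beside 7.82% of all genes, and DESeq2 called 4 members among 2100 genes and limma on mean log values 3 among 1877. All 8 fitted values were negative, with a median of -2.28 on the log2 scale beside 0.05 over all genes. Maob came to -2.36 ± 0.50 (log2, SE; adjusted p = 0.0517) and Gabrg1 to an adjusted p of 0.0529, and without the second cortical suspension both passed (0.0210 and 0.0193). A fitted value against a sum at 0 gives no size, and in this fit the mean of the other subtypes includes AST5, whose sums of 6 to 10 cells were at 0 for Gabra2 and varied widely for most members. With the AST5 sums left out, a choice made after seeing the data, edgeR called Gabrg1 (adjusted p = 1.99e-07), Slc6a11 (-2.41; adjusted p = 0.000984) and Maob (-2.39; adjusted p = 0.00147). Subtypes were found by clustering these same counts, so none of these tests is independent evidence that they differ.

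**Figure D3:**
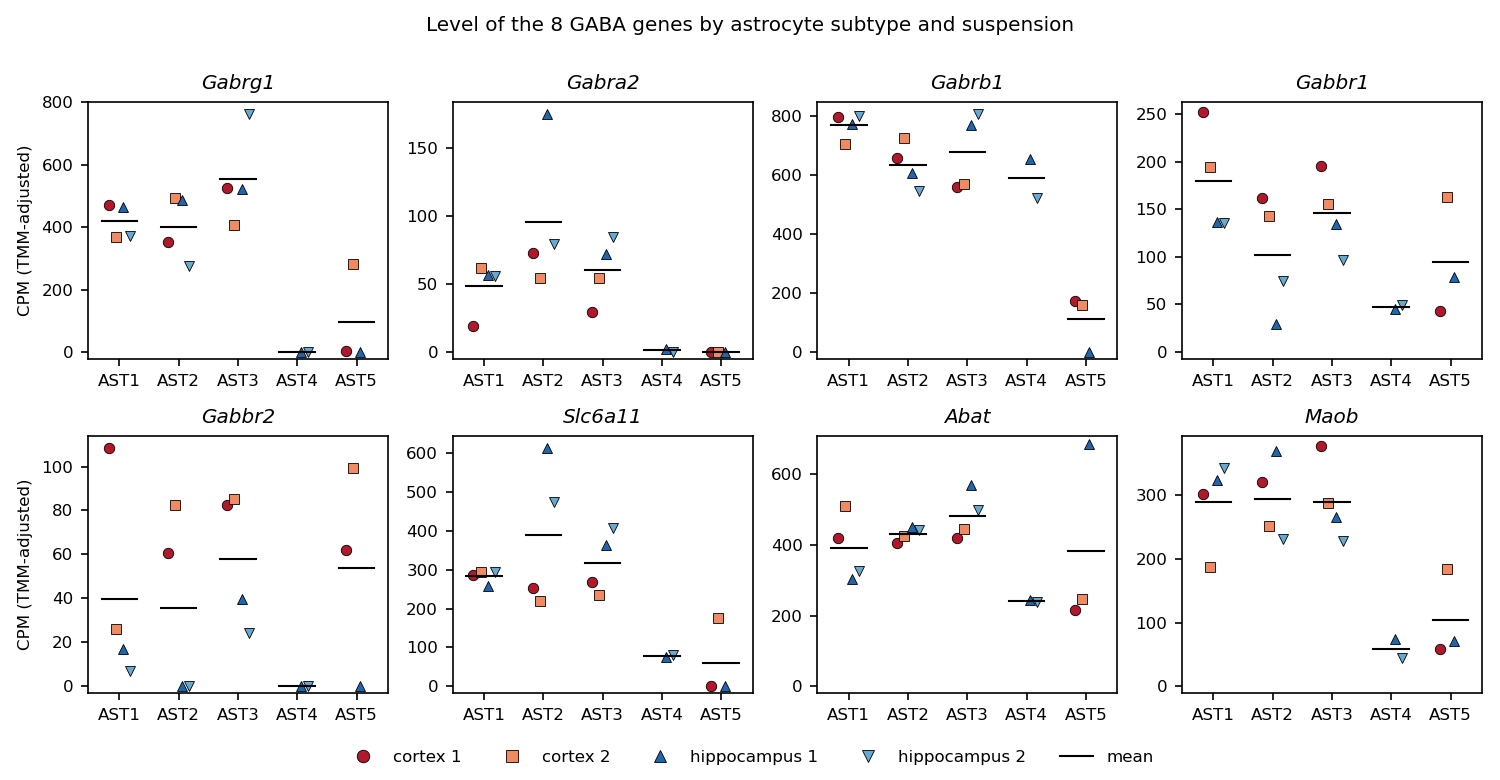
CPM of each gene (vertical axes, TMM-adjusted, each from 0) in the sums of AST1 to AST5 (horizontal axes), with 1 point per suspension and a line at the mean. AST4 has 2 sums, both hippocampal, and AST5 has 3, since a sum needs at least 5 cells. All 8 AST4 means are below those of AST1 to AST3, which take in both areas, and the AST5 points scatter widely. Within hippocampus alone the Gabrb1 mean was 588.8 CPM in AST4 and 577.7 CPM in AST2.

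In AST5, the rarest subtype (26 cells), Gabra2 had 0 counts in every sum and in 26 of 26 cells, which allows a share of up to 11.5%. Maob stood at 58.2, 184.6 and 70.8 CPM (cortex 1, cortex 2, hippocampus 1), below the 188.1 to 377.02 CPM of the AST1 to AST3 sums. These 2 were called lower in AST5 by edgeR's quasi-likelihood test (adjusted p = 0.00232 for Gabra2, and -1.27 ± 0.38, log2 and SE, adjusted p = 0.0333 for Maob), where 17% of 18233 genes were called, nearly all lower, and the median of all genes was -4.55. Gabrb1 stood at 174.2, 158.6 and 0 CPM. Gabrg1 stood at 3.39, 280.9 and 0 CPM and Slc6a11 at 1.82, 174.8 and 0 CPM, so that for both the second cortical sum alone approached the other subtypes. Abat ranged from 214.5 to 685.6 CPM in AST5, with a count in 12 of 26 cells, and Gabbr2 at 62.1, 99.2 and 0 CPM. Of the oligodendrocyte markers, AST5 held 665 to 1865 CPM and the other subtypes 173.6 to 659.4 CPM, and the part of that in these values was not tested. Without the first hippocampal suspension Gabra2 missed the threshold (adjusted p = 1.0), and Maob did so without the first cortical (0.269), the first hippocampal (0.219) or the second hippocampal suspension (0.0829). Gabrb1 and Abat passed without the first hippocampal suspension (0.000437 and 0.0340) and Slc6a11 without the second cortical one (0.00766).

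Over both areas together, the ranges of AST1, AST2 and AST3 overlapped for each of the 8 members. Within 1 area this did not hold for every member. Hippocampal Slc6a11 stood at 257.5 and 293.3 CPM in AST1, 614.6 and 475.7 in AST2 and 363.03 and 406.6 in AST3. Hippocampal AST2 held Gabbr2 at only 0 and 0.188 CPM. How many of all genes lay apart in this way was not counted. Gabrg1 averaged 419.7 ± 56.0 CPM in AST1, 401.6 ± 107.4 in AST2 and 554.1 ± 149.8 in AST3 (SD, n = 4). The share of cells with Gabrg1 was 51.6%, 52.4% and 69.03%, and for all 8 members except Gabra2 the share over both areas was higher in AST3 than in AST1 and AST2. Within cortex this held for the same 7 members, and within hippocampus it did not for Gabbr1 (40.7% in AST1 and 38.8% in AST3). How many of all genes had their highest share in AST3 was not counted. Of these 3 subtypes, AST3 also had the most genes detected per cell in each suspension (median 2051 to 2628 per suspension, against 1801 to 2155 in AST1 and AST2). In cortex its median depth was 1711229 and 1745831 counts, against 1424562 to 1520068 in AST1 and AST2. The part of genes detected and of depth in these shares was not tested. With cells thinned to 50000 counts the Gabrg1 shares were 46.6%, 49.4% and 66.2%, and the share was again higher in AST3 than in AST1 and AST2 for the same 7 members over both areas, though within hippocampus it was not for Gabbr1 or Slc6a11. Gabra2 averaged 95.4 ± 54.2 CPM in AST2, 48.3 ± 19.5 in AST1 and 59.9 ± 23.8 in AST3. Maob averaged 289.4 ± 69.5, 293.8 ± 63.8 and 290.1 ± 63.1 CPM. By edgeR's quasi-likelihood test no member was called in AST1, AST2 or AST3, where 0.0384%, 0.0548% and 0.0% of genes were called, and at an unadjusted p under 0.05 there were 0, 0 and 1 members. DESeq2 called no member there either, and in AST3, where edgeR called no gene at all, 1.89% of genes fell under an unadjusted p of 0.05 while DESeq2 called 727 genes.

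Between the areas, the GABA-B subunits were the members whose groups lay farthest apart. Over all astrocytes of a suspension, Gabbr2 stood at 74.4 and 79.3 CPM in cortex and 18.3 and 9.23 CPM in hippocampus, a log2 difference of -2.51 ± 0.41 (SE) for hippocampus against cortex. Gabbr1 stood at 181.4 and 154.5 CPM in cortex and 122.9 and 113.8 CPM in hippocampus (-0.54 ± 0.12). Gabbr2 was found in 18.3% of 960 cortical astrocytes and 5.24% of 821 hippocampal ones (43 cells), and the share was higher in cortex in 8 of 8 library pools (14.2 to 22.9% against 2.73 to 8.18%). Gabbr1 was found in 51.7% and 38.2%, also higher in cortex in 8 of 8 pools. With each cell thinned to 50000 counts the shares were 15.1% and 3.29% for Gabbr2 and 44.9% and 31.5% for Gabbr1. Pools share the same 4 suspensions, so they repeat the library step and not the animals.

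Of the other members, Abat stood at 408.1 and 441.6 CPM in cortex and 363.6 and 360.6 in hippocampus (-0.26 ± 0.07, SE). Gabrb1 differed by +0.17 ± 0.05, and the differences of Gabrg1, Gabra2 and Slc6a11 were small. For Maob the areas overlapped (334.7 and 259.6 CPM against 282.7 and 275.8). For these genes the share was higher in cortex in 4 to 7 of the 8 pools. By the quasi-likelihood test of edgeR, Benjamini-Hochberg adjusted, no member was called over all astrocytes, where 0.0% of 19160 genes were called. At an unadjusted p under 0.05 there were 4 members (Gabbr2, Gabbr1, Abat and Gabrb1, adjusted p = 0.214 to 0.305) and 2609 genes, and DESeq2 called 3 members (Gabbr2, Gabbr1 and Abat) among 1858 genes. The areas differ in their mix of subtypes, with AST1 and AST4 mostly hippocampal and AST2 mostly cortical.

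**Figure D4:**
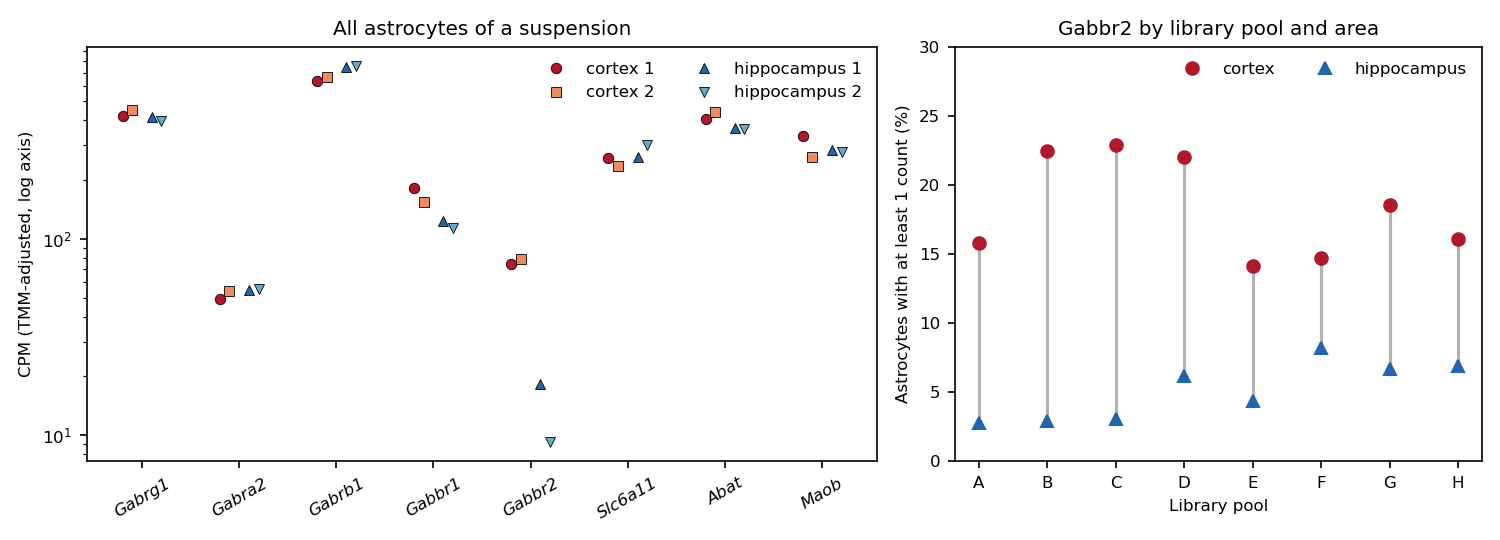
Left, CPM of each gene over all astrocytes of a suspension (log axis), 1 point per suspension. Right, percent of cortical and hippocampal astrocytes with at least 1 Gabbr2 count in each of the 8 library pools. The cortical share of Gabbr2 lies above the hippocampal share in every pool.

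With the subtype held fixed, the lower Gabbr2 values in hippocampus recurred in AST1, AST2 and AST3. Gabbr2 stood at 108.6 and 25.9 CPM in cortical against 16.96 and 6.94 CPM in hippocampal AST1, at 82.3 and 85.2 against 39.6 and 24.5 CPM in AST3, and at 60.7 and 82.5 against 0 and 0.188 CPM in AST2. In AST2 it was found in 87 of 523 cortical and 2 of 32 hippocampal cells, and it was called lower in hippocampus (edgeR quasi-likelihood, adjusted p = 0.0131). Gabbr1 in AST2 stood at 161.3 and 143.2 against 29.6 and 74.4 CPM and was not called (adjusted p = 0.122), though it was without the second hippocampal suspension (0.00748).

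Slc6a11 went the other way in AST2. It stood at 252.1 and 220.2 CPM in the cortical sums and 614.6 and 475.7 CPM in the hippocampal sums, a log2 difference of 1.26 ± 0.18 (SE; edgeR quasi-likelihood, adjusted p = 0.00924). Of hippocampal AST2 cells 22 of 32 had a Slc6a11 count (68.8%, Wilson 95% interval 51.4 to 82.05%) and 52.01% of 523 cortical ones, and among cells with at least 10 counts the median level was 778 and 346.1 CPM. In AST3 Slc6a11 stood at 269.1 and 235.99 CPM in cortex and 363.03 and 406.6 CPM in hippocampus, and in AST1 at 287.9 and 295.5 against 257.5 and 293.3 CPM. These 2 members were the calls in AST2, where 4.16% of 18406 genes were called, 738 of 765 lower in hippocampus, and where the median of all genes was -0.89 (-0.72 with relative log expression factors). The hippocampal AST2 sums held only 10 and 22 cells, and without either cortical suspension neither gene passed (adjusted p = 0.280 to 0.293).

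Within AST1 and AST3 edgeR's quasi-likelihood test called no member, where 0.0109% and 0.0272% of genes were called. At an unadjusted p under 0.05 there were 2 members in AST1 and 3 in AST3, beside 5.30% and 4.13% of all genes, and DESeq2 called 2 in each, among 1561 and 1250 genes. Abat gave opposite signs there, at 420.8 and 511.7 CPM in cortical against 304.8 and 324.8 CPM in hippocampal AST1, and at 419 and 446 against 569 and 499 CPM in AST3. Gabrb1 in AST3 stood at 561 and 571 CPM in cortex and 770 and 809 CPM in hippocampus, whereas in AST1 the areas overlapped. The test of whether the area effect differed among AST1, AST2 and AST3 called none of the members, where 1.81% of genes were called. Its adjusted p was 0.0698 for Slc6a11, 0.0865 for Abat, 0.101 for Gabbr2 and 0.142 for Gabrb1, each with an unadjusted p under 0.05 (edgeR quasi-likelihood), as had 11.6% of all genes, and DESeq2 called 3 (Slc6a11, Abat and Gabbr2) among 1885 genes. Without the second hippocampal suspension Slc6a11 passed (adjusted p = 0.0289).

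Within single astrocytes the members were found together about as often as their shares multiply to. The pair of Gabrg1 and Gabrb1 was found in 41.4% of astrocytes, next to a product of 40.1%, and the set of Gabrg1, Gabra2 and Gabrb1 in 12.02% next to 10.3%. Both GABA-B subunits were found in 6.34% of astrocytes, next to 5.59%. Abat and Maob were found together in 23.9%, next to 21.8%. The excess was positive for Abat with Maob, for Gabrg1 with Gabrb1 and for Gabrg1 with Gabra2 in 4 of 4 suspensions. For Gabbr1 with Gabbr2 it was not, with 8.62% next to 8.61% in the second cortical and 1.87% next to 2.06% in the second hippocampal suspension, and Gabra2 with Gabrb1 lay below the product in the first cortical one (18.9% next to 19.1%). Cells that yield more genes raise every such pair, and the part of that was not tested. Only 2 astrocytes had a count for all 8 members, while 949 had a count for at least 4.

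The wider lists hold the other genes of the same system. Of 19 GABA-A subunit genes, 3 were in over 25% of astrocytes, all of them members, Gabra4 was in 19.99% and 14 were in under 1%. Of 6 genes of the GABA-B receptor and its KCTD partners only Gabbr1 passed 25%. Of the transporter genes Slc6a11 passed it, and Slc6a13 (GAT-2) was in 2 astrocytes, both of AST4, but in 30.6% of mural cells, at 360.6 ± 80.3 CPM (SD, n = 4). The GABA-synthesizing enzymes Gad1 and Gad2 were in 0.505% and 0.225% of astrocytes, whereas Aldh9a1 (31.2%), which like Maob belongs to the putrescine route, and Sat1 (94.6%), which acetylates polyamines, passed 25%. Over all lists 54 genes were taken, of which 40 were tested between subtypes.

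In AST4, 3 of those 40 were called by the quasi-likelihood test of edgeR, Benjamini-Hochberg adjusted, beside 0.636% of all genes. Lower were Glul, the glutamine synthetase of astrocytes (-2.60 ± 0.27, log2 and SE; adjusted p = 0.000211), and Sat1 (-2.41 ± 0.17; adjusted p = 8.9e-06). Higher was Dbi (0.99 ± 0.14; adjusted p = 0.0027), whose product binds the benzodiazepine site of GABA-A receptors, at 1879 and 2029 CPM. In AST2 Sat1 was called higher and Dbi lower (adjusted p = 0.0122 and 0.0439). In AST5, Sat1 (-2.98 ± 0.15; adjusted p = 2.48e-08) and Glud1, a glutamate dehydrogenase (-0.61 ± 0.16; adjusted p = 0.0163), were among those called lower, and Dbi was called higher. Between areas none of 41 was called over all astrocytes, and 3 of 40 were called in AST2, namely Gabbr2 and Lhfpl4, a GABA-A receptor partner, lower and Slc6a11 higher in hippocampus, beside 4.16% of all genes, most of them lower. As given above, the calls of Gabbr2 and Slc6a11 were lost without either cortical suspension.

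The genes whose log levels ran most alike to a member over 26 sums of types and subtypes, among 19167 genes, were Grin2c (r = 0.981) and Gm13322 (0.988) for Gabrg1 and Slc13a5 (0.995) and Scara3 (0.993) for Gabrb1. They were Gpr37 (0.992) and Hapln1 (0.983) for Slc6a11, Ivd (0.959) and Src (0.936) for Abat, and Sdc4 (0.967) and Camk2n1 (0.961) for Maob. For Gabra2, Gabbr1 and Gabbr2 the closest were Nos1ap (0.943), Gm9619 (0.923) and Nphs1 (0.896). The sums share suspensions and the contrast of astrocytes with other types, so these correlations are a description only.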

How the data were processed

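Smart-seq2 libraries of 2030 single cells from 4 suspensions were analysed. According to the paper's methods and the submitters' processing notes, the authors aligned reads with STAR 2.5.2b to GRCm38.p5 with the Gencode annotation and ERCC sequences and used HTSeq to count uniquely mapped reads. What was deposited are these counts for each gene in each cell, neither normalized nor pooled. Reads in no gene (median 12.2% per cell), ambiguous reads (4.80%) and ERCC counts did not enter library sizes. In a joined table of the same counts 4 columns were compared and had equal totals, and 2027 columns were not used. No files of 2 cells were identical. Types are those of the authors' list, of which the copy read here does not hold 33 cells (all from the first cortical suspension), and 15 more carry no type. These cells entered no comparison of types. A mural cell without a file was not used. Of 49671 identifiers, 49326 were given a symbol. Exon lengths came from GENCODE M21.

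Counts were summed per type and suspension (at least 5 cells), which left out AST4 in cortex, AST5 in the second hippocampal and endothelial cells in the second cortical suspension. Sums were tested with edgeR 4.0.16 (R 4.3.3): TMM, filterByExpr, robust quasi-likelihood fit, brain area as a term for types and subtypes, each subtype against the cell-weighted mean of the others, Benjamini-Hochberg over all genes, called at an adjusted p under 0.05. The tests were tried on simulated data, in which those of AST4, of area within AST2 and of mural cells missed most of the genes that had been changed, so a gene not called there is not shown to be unchanged. Fold values against a sum at 0 set it at 3 counts over the group and use unscaled CPM. A single cell can supply many more reads than that, so these folds are not lower bounds. Alternatives were relative log expression factors, DESeq2 1.42.0, limma 3.58.1 on mean log values per cell, no filter, thinning to 50000 counts, the suspension or replicate number as block, at least 10 cells, equal weights and each suspension left out. The genes named are the 8 members, the genes of the wider lists that were called or passed 25% of astrocytes or that a result turns on, and the closest 2 genes to a member. The members and lists were chosen with earlier results of these data known. Deviations of subtypes of the same suspension correlated at -0.01 to 0.04, and those of same-numbered suspensions of the areas at 0.01, and the numbers mark different litters. Suspensions of an area differed by animal (cortex) or litter (hippocampus), by tube and by plate, and p-values measure the spread between these samples. Levels and shares were computed in Python 3.11.15 (numpy 2.4.6, pandas 2.3.3, scipy 1.17.1). Some genes of the wider lists are not reported here.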

Additional observations from a re-analysis of the deposited data

Results flagged for a closer look

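Of 40 groups of 4 sums of a member in a type, 2 held a sum far from the other 3 by Dixon's criterion at 95%, as chance does in about 1 group in 20. In AST1, Gabra2 stood at 19.2 CPM in the first cortical suspension (7 of 57 cells with a count) and at 55.8 to 61.5 CPM in the other 3. In mural cells, Gabbr2 stood at 0.638 CPM in the first cortical suspension, which was 24 counts in 1 of 27 cells, and at 0 in the other 3.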

How the results depend on the processing

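Numbers here are members called of 8. The main test against an alternative gave, for AST4, 0 against 4 (DESeq2), 3 (limma), 1 (no filter), 2 (thinned cells), 3 (sums of at least 10 cells), 2 (equal weights) and 3 (AST5 left out, added after seeing the data). For AST1 it was 0 against 1 with at least 10 cells, 2 with equal weights and 1 with AST5 left out, and for AST2 and AST3 0 against 2 with equal weights, under which the genes called in AST1, AST2 and AST3 came to 1007, 958 and 903 in all. For AST5 it was 2 against 1 with relative log expression factors, without the filter, with equal weights and with the replicate block. Between areas it was 0 against 3 (DESeq2) and 1 (thinned) over all astrocytes, 0 against 2 (DESeq2) within AST1 and AST3, 2 against 1 (limma) within AST2, and 0 against 1 (relative log expression) and 3 (DESeq2) for the difference among subtypes. Between types it was 3 against 6 (DESeq2), 7 (limma), 6 (thinned) and 6 (at least 10 cells) for mural, and 3 against 8, 7 and 6 (DESeq2, limma, thinned) for endothelial cells. Where an alternative named above called more members it also called more genes in all, except without the filter for AST4, with relative log expression factors for the difference among subtypes and with thinned cells for mural cells. The causes were not tested.

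With each suspension left out, the range was 0 to 0 for AST1, AST2 and AST3, 0 to 2 for AST4, 1 to 3 for AST5, 0 to 0 over all astrocytes and within AST1 and AST3, 0 to 3 within AST2, 0 to 1 for the difference among subtypes, 2 to 3 for mural, 1 to 3 for endothelial and 0 to 3 for neuronal cells. With the replicate block, the members called were 0 for AST1 to AST4 and 1 for AST5, 0, 2 and 0 for the areas within AST1, AST2 and AST3, and 3, 3 and 2 for mural, endothelial and neuronal cells. It ended the calls of Maob in AST5 (adjusted p = 0.0596) and of Gabrb1 against neuronal cells (0.0583) and changed no other call of a member. The replicate numbers did not pair the suspensions.

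Over all genes, the count called moved from 7 to between 0 and 1007 in AST1, from 10 to 0 to 958 in AST2, from 0 to up to 903 in AST3, from 0.636% of genes to 17 to 2100 genes in AST4 and from 3094 to 1465 to 7973 in AST5. It moved from 0 to up to 1858 between areas, from 2 to 0 to 1561, 765 to 0 to 4251 and 5 to 0 to 1250 within AST1, AST2 and AST3, and from 1.81% of genes to 0 to 2656 genes for their difference. For mural, endothelial and neuronal cells, where it was 2623, 977 and 497, it fell to 8.81%, 20.98% and 43.1% of these at the lowest and came to 4935, 6350 and 5287 at the highest. No called value changed sign, and of 696 values of members not passing an unadjusted p of 0.05, 73 did. No value could be had for neuronal cells with at least 10 cells a sum, nor for AST4 and AST5 with AST1 to AST3 alone. Thinning lowered the share of astrocytes with a count for each of the 8 members. It draws from a cell's own counts, so no share could rise. The fall therefore does not show whether detection differed with depth between cells. Each area has 2 suspensions, and the hippocampal AST2, the AST4, AST5 and neuronal sums hold few cells.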

Other observations

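Other genes of GABA handling were thinly spread over astrocytes. Aldh5a1, the succinate semialdehyde dehydrogenase that follows GABA transaminase, was found in 10.7% of astrocytes, Maoa, the relative of Maob, in 9.71%, and Aldh1a1, an aldehyde dehydrogenase, in 18.8%. The chloride importer Slc12a2, which sets the direction of GABA-A currents together with the exporter Slc12a5, was found in 3.20% of astrocytes and 37.3% of mural cells, and Slc12a5 in 0.449% and in 0 mural cells. Gabrg3, a further γ subunit gene, was found in 7 of 91 AST4 cells (7.69%, Wilson 95% interval 3.78 to 15.04%) and 2.47% of all astrocytes, and its level in AST4 was not called against the other subtypes (edgeR quasi-likelihood, 3.16 ± 2.19, log2 and SE, adjusted p = 1.0). All 17 neuronal cells had counts of Slc17a6, a vesicular glutamate transporter.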
